A study of Homo sapiens with 3 samples.

Results

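H3K4me1 peaks that lay at an end of a gene carrying no H3K4me3 were examined in ALL-SIL cells, a long-established human line derived from a T-cell leukaemia (T-ALL). A member was an H3K4me1 peak shorter than 10 kb that overlapped the 1 kb on either side of an end of a protein-coding gene. The gene's span and 1 kb on each side had to hold no H3K4me3 peak. Of 62087 H3K4me1 peaks, 1485 were members (2.39%), and they lay at the ends of 1323 genes. These were 14.2% of the 9334 protein-coding genes without H3K4me3 (95% interval 13.5 to 14.9) and 6.60% of all 20033 protein-coding genes. Among the genes with H3K4me3, 66.2% had an H3K4me1 peak of this kind at an end. Members were thus selected on the measured peaks of both marks, so these counts describe the choice and carry no test.

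The cells were 1 line grown in RPMI medium with fetal bovine serum, with no further treatment given in the labels. Chromatin was fixed with formaldehyde, sheared by sonication and precipitated with the antibody ab8895 against H3K4me1 or ab8580 against H3K4me3. The single H3K4me1 library kept 34813455 tags after filtering, the single H3K4me3 library 30823016, and the input library that served for both 18859011. With 1 library a mark there was no replicate error and no test. Exact intervals cover counting error only, and a weak peak from a few cells cannot be told apart from weak signal in all of them. Of 13 T-lineage markers used to check the labelled cell type, 10 had H3K4me3 (CD3D, CD3E, CD3G, CD247, CD5, CD7, LCK, BCL11B, GATA3 and TCF7). The other three, CD2, CD1A and CD1B, had none and were genes with a member peak.

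H3K4me3 is the histone mark of promoters in use and is strongest where CpG dinucleotides are dense. H3K4me1 marks enhancers and the shoulders of promoters, and is usually low at the start site itself when H3K4me3 is present there. A promoter with H3K4me1 and no H3K4me3 is known from cells in which a gene is silent or poised, and many lineage-restricted genes of T cells have promoters with few CpGs. RNA was not measured here, so nothing below says whether a member gene was transcribed.

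The promoters of 5 lymphoid member genes with a peak over the start are shown because base composition, which the rule did not use, differed between the members and genes with H3K4me3. They are the T-lineage, cytokine receptor and transcription factor genes with the highest −log10 q there. This is the peak caller's score listed for a region, larger where the signal stood further above background. Strong and weak peaks below refer to this listed score, and peaks were not matched for length. A low score of a long region does not show that all of it was weak. Sequences are RefSeq's (GRCh38.p14), 5′ to 3′, from 250 bases before to 50 after the start, and capitals mark each CpG. CD1E, a lipid antigen-presenting molecule of thymocytes (chr1:158353644-158353943, plus strand), had 4 CpGs. IL7R, the interleukin-7 receptor chain (chr5:35856641-35856940, plus strand), had 0. CTLA4, an inhibitory receptor (chr2:203867521-203867820, plus strand), had 4. SLAMF6, an adhesion and signalling receptor (chr1:160523206-160523505, minus strand), had 1. TBX21, which encodes the transcription factor T-bet (chr17:47732986-47733285, plus strand), had 23 and was the CpG-rich promoter among them.
CD1E: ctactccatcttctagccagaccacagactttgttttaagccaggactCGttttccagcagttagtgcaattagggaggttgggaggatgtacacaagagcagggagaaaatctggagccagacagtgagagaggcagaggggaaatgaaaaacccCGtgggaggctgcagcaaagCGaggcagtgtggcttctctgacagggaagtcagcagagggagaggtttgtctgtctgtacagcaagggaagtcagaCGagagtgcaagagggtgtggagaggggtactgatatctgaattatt
IL7R: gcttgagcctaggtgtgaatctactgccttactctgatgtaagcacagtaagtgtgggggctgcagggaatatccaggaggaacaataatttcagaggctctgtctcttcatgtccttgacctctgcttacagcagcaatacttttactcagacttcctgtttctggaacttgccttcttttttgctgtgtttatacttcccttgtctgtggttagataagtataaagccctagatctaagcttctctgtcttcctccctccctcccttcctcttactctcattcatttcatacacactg
CTLA4: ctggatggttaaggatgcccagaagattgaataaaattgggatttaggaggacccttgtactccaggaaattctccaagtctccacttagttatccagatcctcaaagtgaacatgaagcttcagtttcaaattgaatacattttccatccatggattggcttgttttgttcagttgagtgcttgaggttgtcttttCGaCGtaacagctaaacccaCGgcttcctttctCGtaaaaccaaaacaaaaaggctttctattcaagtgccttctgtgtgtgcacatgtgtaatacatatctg
SLAMF6: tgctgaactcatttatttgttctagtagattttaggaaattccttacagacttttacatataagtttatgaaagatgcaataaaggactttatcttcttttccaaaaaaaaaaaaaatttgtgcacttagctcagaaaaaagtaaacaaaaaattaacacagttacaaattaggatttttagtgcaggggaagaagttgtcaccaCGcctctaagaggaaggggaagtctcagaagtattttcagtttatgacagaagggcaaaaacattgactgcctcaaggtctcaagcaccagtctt
TBX21: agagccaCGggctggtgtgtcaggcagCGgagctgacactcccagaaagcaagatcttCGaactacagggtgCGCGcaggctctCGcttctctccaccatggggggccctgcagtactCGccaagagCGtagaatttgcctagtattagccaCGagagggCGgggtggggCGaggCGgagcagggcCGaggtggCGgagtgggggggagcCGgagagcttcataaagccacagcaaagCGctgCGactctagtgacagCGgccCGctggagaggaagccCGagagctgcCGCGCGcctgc

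For contrast, the promoters of 2 housekeeping genes with H3K4me3 over the start are shown. TBP, the TATA-binding protein (chr6:170554119-170554418, plus strand), had 21 CpGs. SDHA, a subunit of succinate dehydrogenase (chr5:218070-218369, plus strand), had 41. They had the highest H3K4me3 −log10 q over the start among the housekeeping genes, at 21.0 and 17.0.
TBP: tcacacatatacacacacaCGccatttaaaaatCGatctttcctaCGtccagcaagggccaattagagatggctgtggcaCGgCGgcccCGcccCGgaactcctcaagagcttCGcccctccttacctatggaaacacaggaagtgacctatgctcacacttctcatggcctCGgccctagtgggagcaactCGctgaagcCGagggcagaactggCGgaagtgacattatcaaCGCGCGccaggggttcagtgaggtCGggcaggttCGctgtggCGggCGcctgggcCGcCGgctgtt
SDHA: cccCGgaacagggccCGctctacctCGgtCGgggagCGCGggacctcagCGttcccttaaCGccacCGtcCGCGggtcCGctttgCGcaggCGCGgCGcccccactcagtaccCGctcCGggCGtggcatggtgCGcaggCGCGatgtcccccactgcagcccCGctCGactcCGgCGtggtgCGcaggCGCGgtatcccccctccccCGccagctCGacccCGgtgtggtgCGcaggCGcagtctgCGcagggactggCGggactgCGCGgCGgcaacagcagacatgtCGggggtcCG

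Across the genes with a RefSeq promoter the same contrast held as a shift in the whole distribution. Member genes with a peak at the start (603 genes) had a median of 8 CpGs in the 300 bases, with quartiles of 4 and 25. Genes with H3K4me3 at the start (8095) had a median of 27, with quartiles of 20 and 34. Genes with neither H3K4me3 nor a member peak (5955) had a median of 10, close to the members. An observed-to-expected CpG ratio of at least 0.6 was found in 32.2% of the member promoters (194 of 603, interval 28.5 to 36.1), in 88.4% of those with H3K4me3 and in 40.7% of those with neither. The 340 genes with a member peak at the 3′ end alone had a median of 15 CpGs, and 45.3% reached that ratio. A promoter entry existed for 71.3% of the member genes (943 of 1323), 74.3% of the other genes without H3K4me3 and 83.6% of the genes with it. Because fewer than 80% of member genes had one, a comparison over all member genes is void, and these values describe only the genes with an entry.

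**Figure D1:**
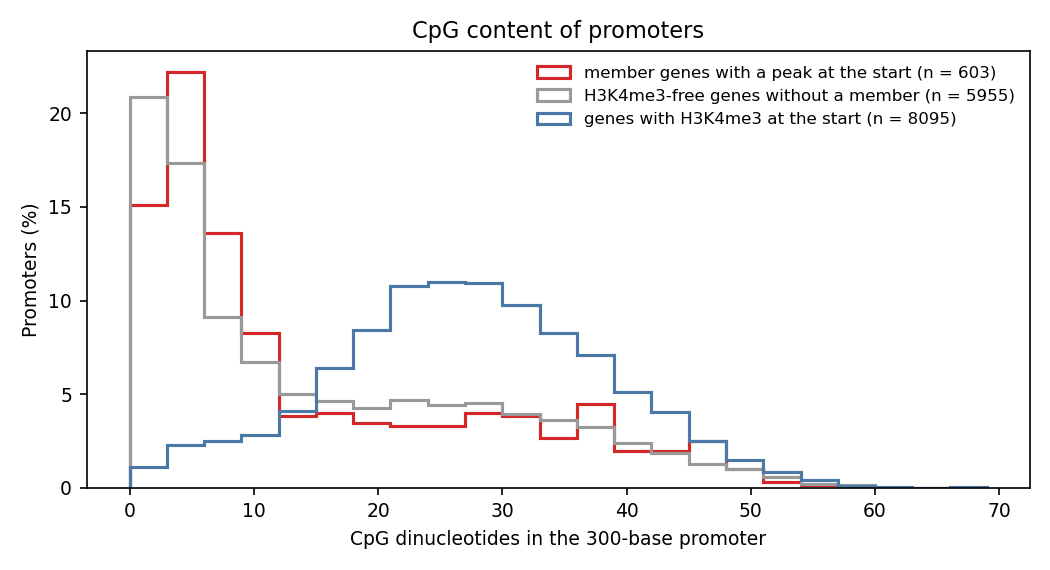
Number of CpG dinucleotides in the 300-base promoter (horizontal axis) against the percentage of promoters in each bin (vertical axis), for 603 member genes with a peak at the start, 5955 H3K4me3-free genes without a member and 8095 genes with H3K4me3 at the start. The first 2 outlines peak at low counts (medians 8 and 10) and the last one around its median of 27.

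Short motifs were counted on both strands of the same promoters, and overlaps between motifs were not removed. The RUNX motif, spelled TGTGGT, was in 19.7% of promoters with a member peak at the start (119 of 603), 12.8% of promoters of H3K4me3-free genes without a member, 9.07% of those with H3K4me3 and 11.0% of all promoters. The ETS motif, CAGGAAG, was in 18.1% (109), 12.4%, 11.8% and 12.4%. Among promoters with a CpG ratio under 0.6, the RUNX motif was in 26.2% at member starts (107 of 409, interval 22.0 to 30.7) and 16.3% at H3K4me3-free genes without a member (575 of 3529, 15.1 to 17.6), and in 15.8% at starts with H3K4me3. In the same promoters the ETS motif was in 21.3% (87 of 409, 17.4 to 25.6) and 15.0% (13.9 to 16.3), and at starts with H3K4me3 it was in 19.0% (16.5 to 21.6), within the interval of the members. The GC box, GGGCGG, was in 27.4% of these promoters at member starts (23.1 to 32.0), 17.1% without a member (15.9 to 18.4) and 37.7% with H3K4me3. The TATA box, TATAAA, was in 12.7%, 22.5% and 11.2%. Among promoters at or above that ratio, the RUNX motif was in 6.19% at member starts and 7.67% without a member, while the E-box of MYC, CACGTG, was in 17.0% and 9.15%. The 3′-end members, whose peak was not at the promoter, had the RUNX motif in 10.3% of promoters. IL7R and CD1E, printed above, each held a RUNX motif, and IL7R also an ETS motif. CTLA4, SLAMF6 and TBX21 held neither, while the housekeeping promoter of SDHA held a RUNX motif and that of TBP an ETS motif.

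The other motifs are given for member starts, H3K4me3-free genes without a member and all promoters, in that order. The TATA box (TATAAA) was in 10.8%, 16.4% and 9.75%. The GATA motif (AGATAA) was in 9.29%, 12.1% and 7.66%, and the TCF/LEF motif (CTTTGA) in 13.3%, 14.4% and 11.0%. The E-box CAGCTG was in 21.9%, 19.1% and 17.5%, and the E-box of MYC (CACGTG) in 9.95%, 6.48% and 8.82%. The MYB motif (AACTG) was in 37.1%, 40.4% and 36.1%, and the CCAAT box (CCAAT) in 30.3%, 35.5% and 36.4%. The GC box (GGGCGG) was in 46.9%, 41.5% and 58.3%, and the homeobox core (TAATTA) in 3.15%, 5.58% and 3.36%. A match states only that these letters were present in the window.

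Member peaks at the start covered the start base more often than the H3K4me1 of genes with H3K4me3 did. In 55.9% of the 603 genes with a member at the start (337, interval 51.8 to 59.9) a peak covered the start base. Of 5014 genes with H3K4me3 and H3K4me1 at the start, H3K4me1 covered the start base in 15.1% (758, 14.1 to 16.1), while H3K4me3 covered it in 87.9%. At the member genes the share under H3K4me1 fell away on both sides, to 42.1% at 1 kb upstream and 38.6% at 1 kb downstream. At the genes with H3K4me3 it was higher on the shoulders, at 47.4% upstream and 42.4% downstream. At 2 kb downstream the order was 22.6% at member genes and 41.0% at genes with H3K4me3. Membership required a peak within 1 kb of an end and no H3K4me3, and did not fix where in that window the peak lay. The high level inside the window and the fall beyond it follow in part from that rule. At 3′ ends, chosen by the same window, a peak covered the end base in 43.0% of genes (225 of 523). The genes with H3K4me3 were chosen for H3K4me3 within 1 kb of the start, and peak lengths were not matched. How much of the difference at the start base came from these choices was not tested.

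**Figure D2:**
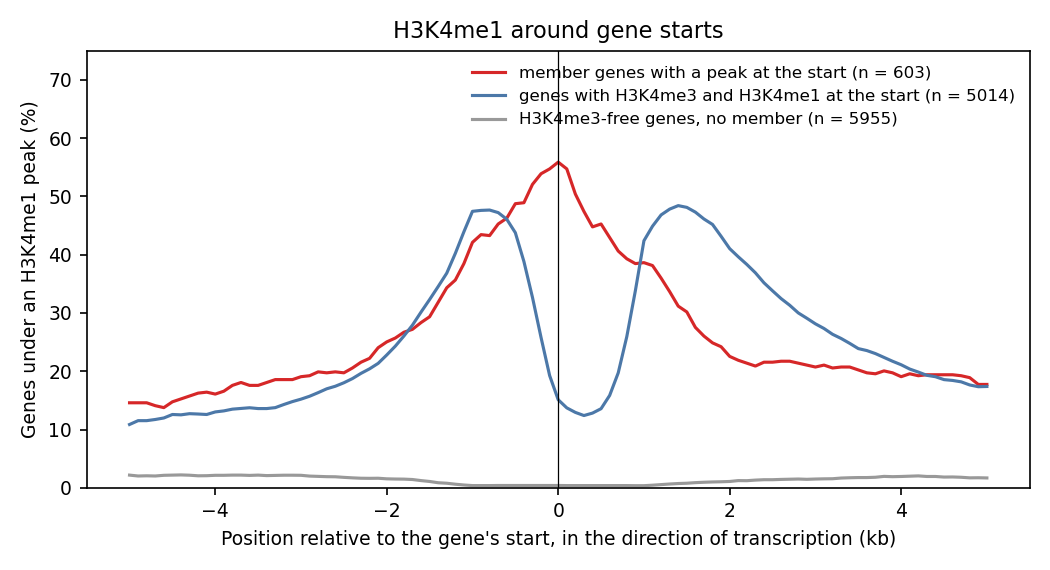
Percentage of genes under an H3K4me1 peak (vertical axis) at each 100 bp from 5 kb before to 5 kb after the gene's start (horizontal axis, kb, in the direction of transcription), for 3 classes of gene with known strand. The member genes peak at the start (55.9%), and the genes with H3K4me3 and H3K4me1 at the start dip there (15.1%). The other H3K4me3-free genes, which by the rule have no H3K4me1 peak under 10 kb within 1 kb of an end, stay near 0.

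Strand was known for 943 member genes. The member peak was at the start alone in 420 of them (44.5%), at the 3′ end alone in 340 (36.1%) and at both ends in 183 (19.4%). Among all 6898 H3K4me3-free genes with known strand, 8.74% had a member at the start and 7.58% at the 3′ end. A peak covered the 3′ end base in 225 of 523 genes with a member there (43.0%). Most genes had 1 member peak (1113), while 195 had 2 and 15 had 3. APOBEC2, of the cytidine deaminase family, CD40LG, the ligand that helper T cells use to activate B cells, and IL17RB, a receptor for interleukin-25, were among those with 3.

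The T-lineage surface and signalling genes had the highest share of members among the 13 gene lists with more than 1 H3K4me3-free gene. Of 50 such genes 14 had no H3K4me3, and 12 of those 14 had a member peak (85.7%, 57.2 to 98.2), against 14.2% of all H3K4me3-free genes. These were CD2, CD1A, CD1B, CD1C, CD1E, CD28, CTLA4, PTCRA, SLAMF1, SLAMF6, CD40LG and GPR171, with 19 distinct peaks. DNTT, the terminal transferase of thymocytes, and SKAP1, an adaptor of T-cell receptor signalling, had none, although 4 and 6 H3K4me1 peaks lay in or within 50 kb of them. The list was chosen with earlier results of these data known. Its interval treats neighbours such as CD1A, CD1B, CD1C and CD1E as independent, which they may not be. The member genes of the list lay far from H3K4me3, at a median of 105436.5 bp against 25106 bp for all member genes. A median of 37.7% of the gene was under H3K4me1, against 8.89% for all member genes, and a median of 11 H3K4me1 peaks lay in or within 50 kb of the gene, against 8. These medians were not particular to the T-lineage surface list. The cytokine list had 170324 bp, 32.6% and 11 peaks, and the chemokine list 49772 bp, 38.4% and 12. The natural killer list had 140611 bp, 11.5% and 8. Most of the member peaks of the T-lineage surface list had low scores. Only 5 of the 14 genes had one with a −log10 q of at least 2, against 8.71% of all H3K4me3-free genes. At that threshold the list no longer stood first, since the T-lineage factors had 4 of 6 and the chemokine receptor list 6 of 16. The TNF superfamily (7 of 20) and the B-lineage list (6 of 19) had somewhat lower shares than this list.

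**Figure D3:**
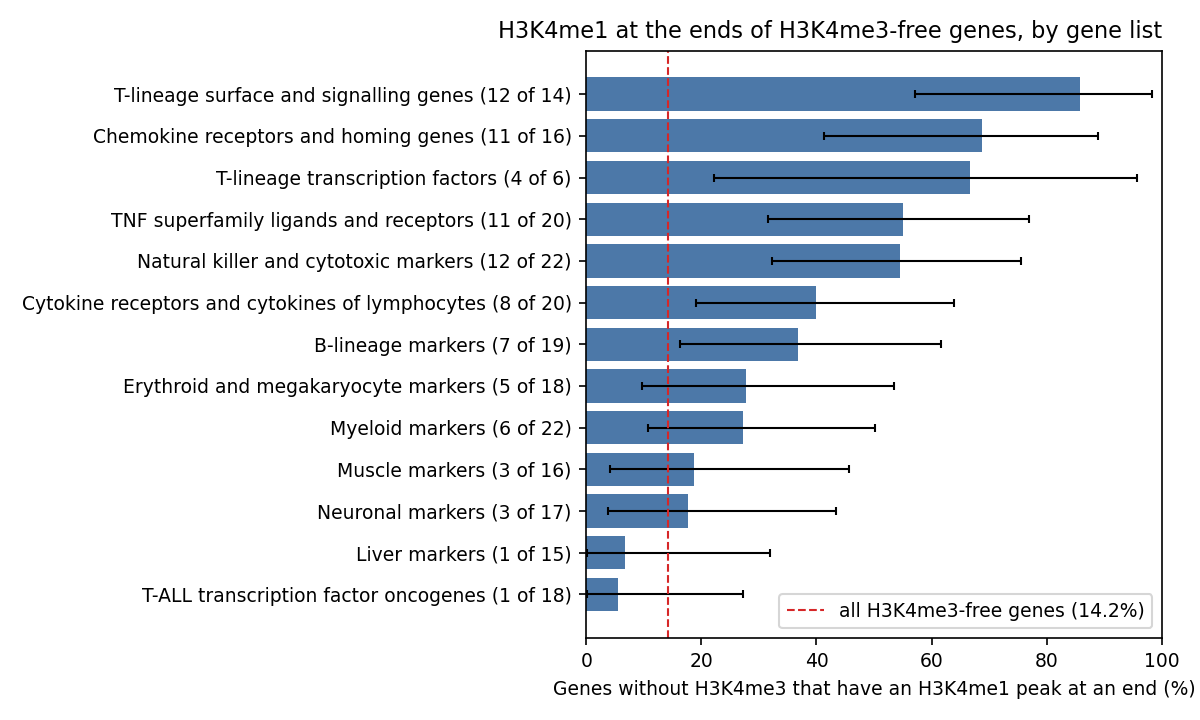
Share of the H3K4me3-free genes of each list that had a member peak (horizontal axis, %), with member and H3K4me3-free counts beside each of 13 lists and exact 95% intervals as bars. The dashed line is the 14.2% of all H3K4me3-free genes, and the T-lineage surface list (85.7%), the chemokine receptor list (68.8%) and the T-lineage factor list (66.7%) stand highest.

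Adhesion and co-stimulation receptors formed the first group of these genes. CD2, the adhesion receptor of T cells (chr1:116754430-116769229), had a peak of 2168 bp over its start with a fold of 1.62 over input and a −log10 q of 1.10. H3K4me1 covered 88.8% of CD2, and the nearest H3K4me3 was 183077 bp away. The covered share counts H3K4me1 peaks of any length, and a peak of 15048 bp, too long to be a member, also lay at CD2. CD28, the co-stimulatory receptor (chr2:203706482-203738912), had a peak of 7930 bp over its start, 49.1% of its span under H3K4me1 and the nearest H3K4me3 at 171207 bp. CTLA4 (chr2:203867771-203873965), the inhibitory counterpart of CD28 on the same chromosome, had a shorter and stronger peak over its start, of 923 bp with a −log10 q of 4.89, and a second of 211 bp at its 3′ end. SLAMF1 (chr1:160608106-160647044) had 5532 bp over its 3′ end with a −log10 q of 6.86 and 1351 bp over its start with 2.47. SLAMF6 had 684 bp over its start with 4.76. CD40LG (chrX:136648158-136660390) had 3 peaks around its ends and 18 H3K4me1 peaks in or within 50 kb, the most of the 12 genes. GPR171 (chr3:151197754-151203216), an orphan-type G-protein-coupled receptor, had 98.5% of its span covered, the largest share of the 12, and a second peak 837 bp before its start with a −log10 q of 7.18.

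Thymocyte genes formed the second group. The CD1 molecules present lipids to T cells and are known from cortical thymocytes. CD1A (chr1:158248336-158258269) had peaks at both ends, 8368 bp over the start and 811 bp over the 3′ end, and 70.9% of its span was covered. CD1C (chr1:158289923-158294774) lay within the annotated span of CD1B (chr1:158285405-158331531), and 81.3% of it was under H3K4me1, with a peak of 4146 bp at both its ends. CD1E had a peak of 1759 bp over its start with a fold of 3.90 and a −log10 q of 6.25, while the best −log10 q at CD1A, CD1B and CD1C was at most 1.79. PTCRA, which encodes the pre-T-cell receptor alpha chain (chr6:42916053-42925838), was the exception in position, with H3K4me3 2896 bp from the gene. Its peak of 2422 bp had a −log10 q of 1.28.

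**Figure D4:**
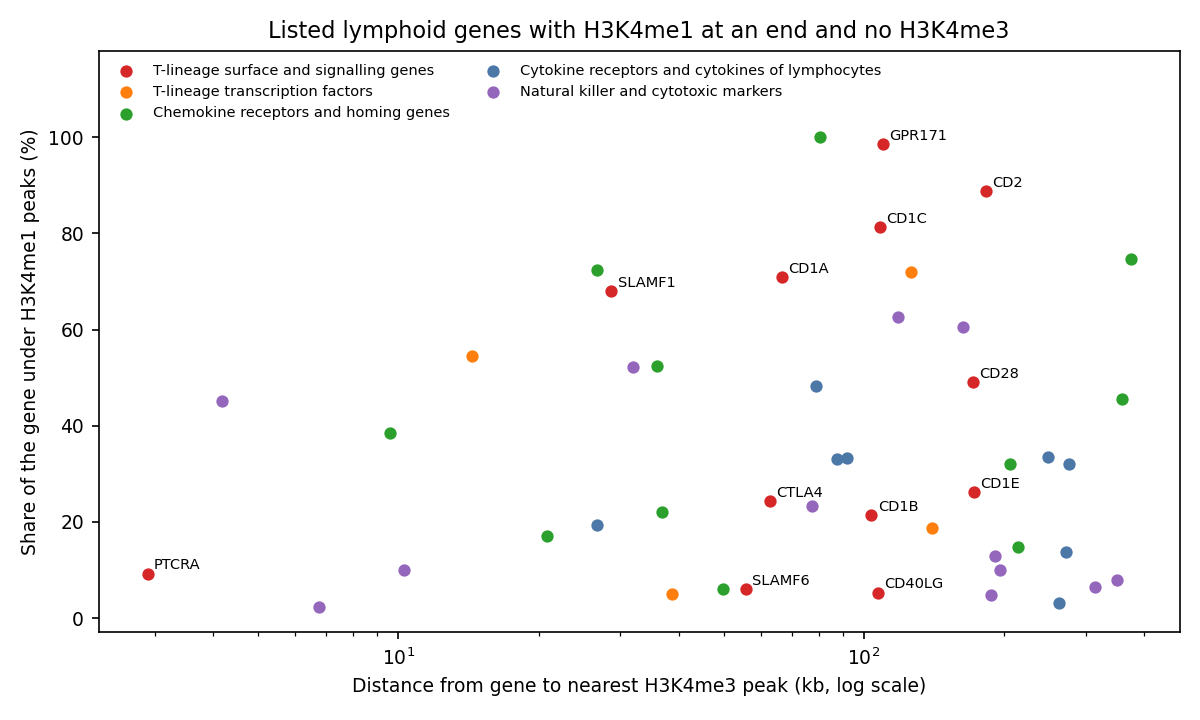
Distance from the gene to the nearest H3K4me3 peak (horizontal axis, kb, log scale) against the share of the gene under H3K4me1 peaks (vertical axis, %), 1 point for each member gene of 5 lymphoid lists, with the T-lineage surface genes named. GPR171 (98.5%) and CD2 (88.8%) are the most covered of the named genes, and PTCRA lies nearest to H3K4me3.

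Of 30 T-lineage transcription factors 6 had no H3K4me3, and 4 of these had a member peak (66.7%, 22.3 to 95.7), each with a −log10 q of at least 2. TBX21 had 4856 bp over its start with a −log10 q of 4.86. KLF2, a factor of T-cell quiescence and trafficking, had peaks at both ends, the stronger with 4.36, and both lay 125110 bp or more from H3K4me3. TOX2, an HMG-box factor, had its peak of 3325 bp over the 3′ end with 3.43, so its promoter was not marked by a member. In contrast to the surface genes, TOX2, TBX21 and KLF2 had CpG-rich promoters with 33, 23 and 49 CpGs, while the 10 surface genes with an entry had 1 to 9 (median 4). ZBTB7B, the CD4-lineage factor ThPOK, was no member, and the peaks at its ends, of 10088 and 10103 bp, were over the length limit. FOXP3, the regulatory T-cell factor, had no peak at an end.

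Cytokine receptors and cytokines of lymphocytes had 20 H3K4me3-free genes of 35, and 8 had a member (interval 19.1 to 63.9%). The receptors were IL7R, IL2RA, IL6R, IL10RA and IL21R. IL7R (chr5:35856891-35879603) had 1592 bp over its start with a −log10 q of 5.17 and 3223 bp over its 3′ end, at 271197 bp from H3K4me3. IL21R, the interleukin-21 receptor, had peaks at both ends, the stronger with 4.73, and IL6R had 8613 bp over its start with 3.17. IL2RA, the alpha chain of the interleukin-2 receptor, had 2079 bp over its start with 2.41. The cytokines were IL3, CSF2 and IL17A, with best −log10 q of 2.40, 1.87 and 0.89. IL2, IL9, IL18RAP and IL6ST had no H3K4me1 peak at all in or within 50 kb, and IFNG, IL4, IL13 and IL22 had 5 to 7 nearby but none at an end. IL10 was wholly under a peak too long to be a member.

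Chemokine receptors and homing genes had 16 H3K4me3-free genes of 33, of which 11 were members (68.8%, 41.3 to 89.0). CCR1, CCR3, CCR2 and XCR1, chemokine receptors, lie together on chromosome 3. CCR1 and CCR3 both start within the same peak of 3445 bp. CCR2 had 7353 bp over its start with a −log10 q of 3.02 and 2407 bp over its 3′ end, and lay 357961 bp from H3K4me3. CXCR3, a receptor of Th1 cells, lay wholly under a peak of 5213 bp with a −log10 q of only 1.05. CX3CR1, the fractalkine receptor, had 5403 bp over its start with 4.26, and GPR183, the oxysterol receptor that guides lymphocyte migration, had 3 peaks with up to 3.79. CXCR1 and CXCR5 had 1 peak each, with 1.07 and 1.48. ITGB7, the beta chain of the gut-homing integrin, had both ends marked and was 9575 bp from H3K4me3. CCR6, CXCR2 and CRTAM had no peak at an end, and CXCR6 lay wholly under a peak over 10 kb.

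The TNF superfamily had 20 H3K4me3-free genes of 26 and 11 members (55.0%, 31.5 to 76.9). Among ligands, TNFSF14 had the highest −log10 q at 5.69, at its 3′ end, followed by TNFSF9 at 3.71, TNFSF8 at 2.68, FASLG at 1.33, TNFSF18 at 1.01 and TNFSF13B at 0.88. FASLG, the death ligand of cytotoxic cells, had 16 H3K4me1 peaks in or within 50 kb. Among receptors, LTBR had 5.52 in a peak that began 616 bp inside the gene from its start, TNFRSF25 had 4.74 at its 3′ end, and TNFRSF4, which encodes the co-stimulatory receptor OX40, had 3.83 and was wholly covered. TNFRSF8, the gene of CD30, had 2.24, and TNFRSF13B had 1.45. TNFRSF4 was the member of a neighbouring pair whose partner TNFRSF18 had no peak at an end. GIMAP4 was the only H3K4me3-free gene of the 7 GIMAP genes, GTPases of lymphocyte survival, and had 4087 bp over its start with a −log10 q of 1.04.

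Of 23 T-ALL transcription factor oncogenes 18 had no H3K4me3 and 1 had a member (5.56%, 0.141 to 27.3), an interval that covers the 14.2% of all H3K4me3-free genes. It was LMO2, a partner of TAL1, with a peak of 3149 bp, a fold of 1.43 and a −log10 q of 0.82, and with no other H3K4me1 peak in or within 50 kb. TAL1, TAL2, TLX3, HOXA9, HOXA10, HOXA11, NKX2-1, NKX2-5, MEF2C and MYCN were among the 17 without a member. LMO1, LMO3, NKX2-1, NKX2-5, MEF2C, MYCN, BHLHE22 and ZEB2 had 0 H3K4me1 peaks in or within 50 kb. The 20 housekeeping genes all had H3K4me3, so none could be a member.

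Markers of other blood lineages were members at intermediate shares. The natural killer and cytotoxic list had 12 members of 22 H3K4me3-free genes (54.5%, 32.2 to 75.6), of 25 in all. It held the granule genes GNLY, PRF1, GZMA, GZMB, GZMH and GZMM, of which PRF1 (perforin) had the strongest peak, 1205 bp over its start with a −log10 q of 4.12. The members CD244, KLRK1, XCL1, XCL2, CST7 and CTSW had 1.11 to 2.24. Only 3 of the 22 reached a −log10 q of 2, so this list rested on weak peaks more than the T-lineage factors did. GZMK, KLRC1, KLRB1, NCAM1 and CCL5 had no peak at an end. These genes are also used by T cells, and an admixture of another cell type was not tested.

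B-lineage markers had 7 members of 19 (36.8%, 16.3 to 61.6), of 25 in all, and 6 of the 7 reached a −log10 q of 2. CD79A, a signalling chain of the B-cell receptor, had 8.28 at its 3′ end and lay 1499 bp from H3K4me3. MS4A1, the gene of CD20, had 7.38 in a peak of 228 bp that was the only H3K4me1 peak in or within 50 kb, and VPREB1, of the surrogate light chain, had 6.80 and was wholly covered. BLK had 5.73, CD22 3.10 and SPIB 1.19, while EBF1, FCRL1, FCRL2 and BANK1 had no peak at an end. Myeloid markers had 6 members of 22 (27.3%, 10.7 to 50.2), of 25 in all: CEBPE with 4.51, CSF3R with 4.36, CD68 with 3.10, ITGAM with 1.99, ITGAX with 1.42 and FCGR3A with 0.88. The defining genes MPO, ELANE, LYZ, CD14, S100A8 and S100A9 had none. CD68, CSF3R and FCGR3A lay within 1510 bp of H3K4me3, and without peaks that also lay at an end of a gene with H3K4me3 the myeloid count was 4.

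Erythroid and megakaryocyte markers had 5 members of 18 (27.8%, 9.69 to 53.5), of 19 in all. HBD, the delta-globin gene, had 603 bp over its start with a fold of 6.11 and a −log10 q of 10.8, although no other H3K4me1 peak lay in or within 50 kb. HBA1 and HBA2 shared 1 peak of 2041 bp with 1.69, and GP1BA and SLC4A1 had 0.76 and 1.25. GATA1, KLF1, HBB and HBG1 had none. Liver markers had 1 member of 15 (6.67%), of 18 in all, F2, the prothrombin gene, with 1.20. Neuronal markers had 3 of 17 (17.6%), of 20 in all: GRIN1, TUBB3 and SNAP25 with 3.17, 1.72 and 1.45. Muscle markers had 3 of 16 (18.8%), all of them without H3K4me3: TNNI2, TNNT3 and CKM with 2.44, 1.37 and 1.34. The intervals of the myeloid, erythroid, liver, neuronal and muscle lists all covered the background of 14.2%.

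Membership was more frequent the closer a gene lay to H3K4me3. Among H3K4me3-free genes, 42.7% (220 of 515) had a member where H3K4me3 was 1 to 5 kb from the gene. The share was 29.5% at 5 to 10 kb, 23.3% at 10 to 20 kb, 18.5% at 20 to 50 kb and 12.3% at 50 to 100 kb. It was 8.55% at 100 to 200 kb, 4.88% at 200 to 500 kb and 1.23% (12 of 974) beyond 500 kb. Nearby H3K4me3 thus moved with membership, and its part in the members' counts was not tested. Among genes over 100 kb from H3K4me3 the background was 5.42% (221 of 4078), and the T-lineage surface list had 7 of 8 there (CD2, CD1B, CD1C, CD1E, CD28, GPR171 and CD40LG). Over the same distance the natural killer list had 7 of 11, the chemokine list 4 of 6 (CCR1, CCR2 and CCR3 among them), the cytokine list 4 of 11 and the TNF superfamily 3 of 6. The B-lineage list had 2 of 8, the neuronal list 1 of 10, and the myeloid list 0 of 8. The T-ALL oncogenes had 0 of 9 and the liver list 0 of 6.

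**Figure D5:**
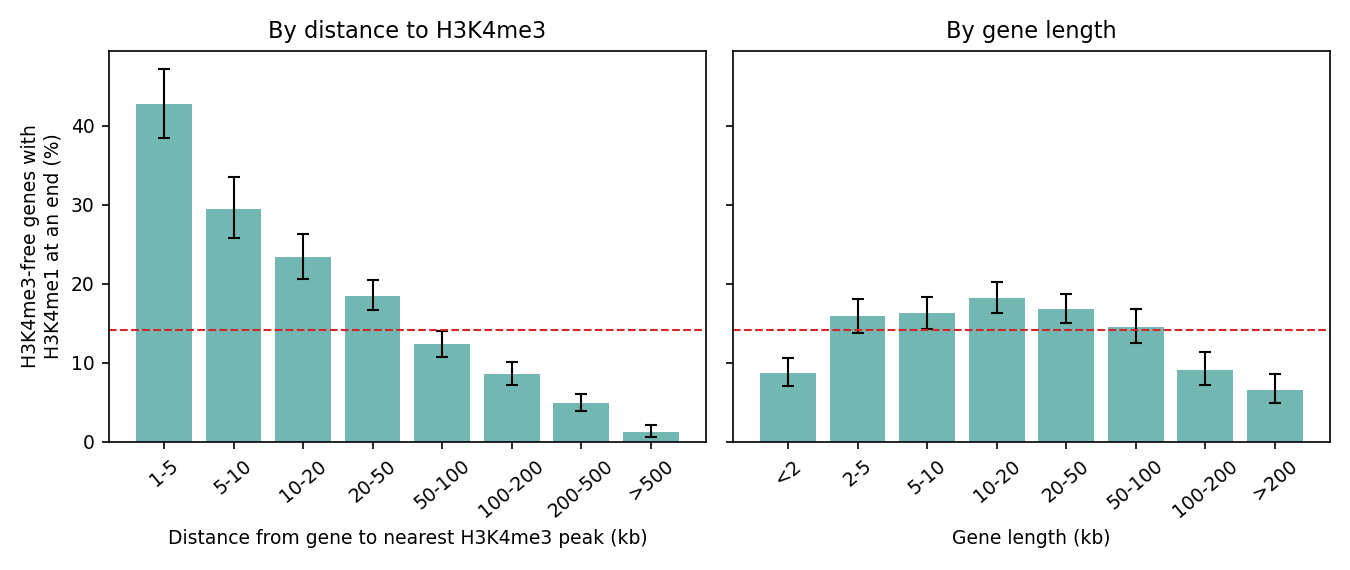
Share of H3K4me3-free genes with a member peak (vertical axis, %) by distance from the gene to the nearest H3K4me3 peak (left, kb) and by gene length (right, kb), with exact 95% intervals as bars and the 14.2% of all H3K4me3-free genes as a dashed line. The share falls from 42.7% to 1.23% with distance and is highest, at 18.2%, for genes of 10 to 20 kb.

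Measured from the peaks, the nearest H3K4me3 was at a median of 31691 bp (quartiles 10417 and 82849). It was within 5 kb for 237 members (16.0%), within 20 kb for 578 (38.9%) and beyond 100 kb for 294 (19.8%), of which 16 were beyond 500 kb. The farthest was at ALX1, a homeobox gene of craniofacial development, 2733682 bp from H3K4me3. Among members that did not overlap H3K4me3 the nearest, 1 bp away, was at the gene LOC102724052, and at CD68 the gap was 42 bp. There were 69 members that overlapped an H3K4me3 peak outside the gene's own stretch (4.65%), and 203 that also lay at an end of a gene with H3K4me3 (13.7%).

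Member peaks were longer than other H3K4me1 peaks but of similar strength. Their median length was 1314 bp (quartiles 666 and 2740), against 933 bp (496 and 1824) for 7917 other peaks under 10 kb at gene ends and 1001 bp (529 and 1925) for 51642 away from ends. The median fold over input was 2.42, 2.36 and 2.37, and the median −log10 q was 2.39, 2.28 and 2.25. A longer peak has more chance of reaching a window, which the lengths share with the rule. Of the members, 582 were under 1 kb (39.2%), and 152 were from 5 to 10 kb (10.2%). The strongest was at LOC105379545, with a −log10 q of 19.9 and a fold of 9.04. ACP5, the tartrate-resistant acid phosphatase of osteoclasts and macrophages, had 3 peaks around its ends with 17.7, 17.7 and 12.2. SNAI2, a zinc-finger repressor known from epithelial-mesenchymal transition, had 17.1, SIGLEC12, a sialic acid-binding lectin, 17.0, and SLAMF7, a SLAM family receptor, 13.3.

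The member genes had a median length near that of other H3K4me3-free genes, with a lower upper quartile, and were shorter than genes with H3K4me3. Their median was 15795 bp (quartiles 6183 and 39430), against 17314 bp (5347.5 and 64198) for the H3K4me3-free genes without a member and 29839 bp (12370.5 and 68939) for genes with H3K4me3. The range ran from 66 bp at LOC128031832 to 1214012 bp at CSMD3, a very long gene of the nervous system. By length, 8.69% of H3K4me3-free genes under 2 kb had a member, 18.2% of those from 10 to 20 kb (271 of 1491) and 6.57% of those over 200 kb. The rule leans on length, since a long span has more room for H3K4me3. Around the gene, H3K4me1 was denser at the member genes: a median of 8 peaks lay in or within 50 kb, against 1 for H3K4me3-free genes without a member and 8 for genes with H3K4me3. These counts include the member peaks, which the rule used.

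The limits of the rule cut through similar values. Just inside the length limit lay peaks of 9929 bp at IFITM5, 9769 bp at LOC124901780 and 9766 bp at BST1, and just outside lay 10056 bp at QRICH2 and 10088 and 10103 bp at ZBTB7B. At the 1 kb window, peaks at HSPB9 and PRX were 1000 bp from the end and were kept, and those at MANEAL and SLC6A17 were 1002 bp away and were not. At the 1 kb stretch free of H3K4me3, BHLHE41 was kept with H3K4me3 at 1002 bp, and APOA5 and CYSRT1 were left out with H3K4me3 at 990 bp.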

How the data were processed

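Peak lists of 1 H3K4me1 and 1 H3K4me3 library were used, and the input entered only through the caller. Broad regions come from MACS2 (version 2.1.0.20150731), run with q of 0.05 for strong and 0.1 for broad parts, at most 1 tag per position, and scaling down of the larger library, per the file headers. The headers' alignment paths point to STAR, whose version is not given in the sources used here. GRCh38 was the build, per the submitters' processing notes. The deposited pileup is a coverage signal, the deposited fold enrichment is a ratio over the authors' input-based background, and the deposited −log10 of p and q are the caller's. All are the authors' values per peak and served only to describe, rank or filter peaks. A region's listed −log10 q can lie under the calling threshold, as at the 3′ end of CTLA4 (0.77).

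Genes were the protein-coding spans of RefSeq GRCh38.p14, matched by position, and overlap meant at least 1 bp. Start and strand came from RefSeq's promoter table, which holds no gene of chromosome 8. Distances are gaps in bp. Shares carry exact Clopper-Pearson 95% intervals. The selection was tested on simulated data. Python 3.11.15, numpy 2.4.6, pandas 2.3.3 and scipy 1.17.1 were used.

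The members, the 15 gene lists, the 17 symbol families and the 11 motifs were chosen with earlier results of these data known. Named were list members, up to 12 a list by summed peak length, the 10 peaks of highest −log10 q and of highest fold, the 5 longest and shortest genes, the 10 genes with most peaks, the 5 nearest and farthest peaks and 3 on each side of each limit. Up to 8 promoters of list members were taken by −log10 q, of which those of the T-lineage, cytokine and transcription factor lists are printed. Genes without a member, the housekeeping promoters, families and neighbouring genes were named after their values were seen. Some list genes are counted but not reported here by name.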

Additional observations from a re-analysis of the deposited data

How the results depend on the processing

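No paired analysis was possible because each mark had 1 library, and for the same reason no replicate could be left out. The values as reported were 1485 member peaks, 1323 genes, 14.2% of H3K4me3-free genes, a median gene length of 15795 bp, a median distance to H3K4me3 of 31691 bp and 12 T-lineage surface genes. With H3K4me1 peaks of −log10 q of at least 2 they were 876 peaks, 813 genes, 8.71% and 5 T-lineage genes. With only H3K4me3 peaks of −log10 q of at least 5 counted, they were 2983 peaks, 2582 genes, 22.8%, 19987 bp and 44916 bp. The share of genes was 11.2% with a window of 0.5 kb, 18.7% with 2 kb and 13.1% with an overlap of 200 bp. With a stretch of 5 kb free of H3K4me3 it was 12.5%, with a gene length of 17779 bp and a distance of 43380.5 bp. With no length limit or without LOC symbols, no value moved beyond its interval or by over 1.5 times. Both remaining alternatives were chosen after seeing the data. Without peaks at an end of a gene with H3K4me3 the share was 12.5% and the distance 38755 bp. With starts alone, where strand was known, there were 608 peaks, 603 genes, 8.74% and 36251 bp. The T-lineage count was 10 to 14 in every alternative other than the H3K4me1 threshold. The depth of 1 library limits which weak peaks were called, and a missing peak does not show that a mark was absent.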

Other observations

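Member genes also lay in runs. There were 26 runs of 3 or more neighbouring protein-coding genes that were all members. Member genes were 6.60% of all protein-coding genes, and 116 of the 1323 (8.77%) shared a member peak with another H3K4me3-free gene. How many runs would arise from gene positions and shared peaks alone was not worked out. The longest, on chromosome 3, held 8 genes with 10 peaks, among them the chemokine receptors XCR1, CCR1, CCR3 and CCR2, the chemokine-binding receptor CCRL2, lactoferrin (LTF) and RTP3. CCRL2 and RTP3 each lay wholly under 1 peak, of 7900 and 8296 bp, with a −log10 q of 3.02 and 3.39. A run of 6 genes at chr1:160683206-160954809 held SLAMF7, LY9 and CD244, SLAM family receptors, with ITLN1 and ITLN2, intestinal lectins, and LY9 had the peak over its end with a −log10 q of 7.44. The CD1A, CD1B, CD1C and CD1E run ended at OR10T2, an olfactory receptor gene wholly under a peak of 3023 bp. CMA1, CTSG, GZMH and GZMB, the genes of chymase, cathepsin G and granzymes H and B on chromosome 14, formed a run of 4 with 6 peaks. PDCD1, the gene of the inhibitory receptor PD-1, lay in a run of 5 genes with 7 peaks, and its own peak of 2496 bp covered its start. Neighbours in a run can share a peak and are not independent.

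By symbol family, the share of H3K4me3-free genes with a member was 38.3% for CD-numbered surface antigens (18 of 47, interval 24.5 to 53.6), 23.5% for interleukins and their receptors (16 of 68) and 21.7% for SLAM, FCRL and LILR receptors (5 of 23). The CD-numbered members outside the lists included CD69, CD80, CD37, CD180, CD200R1 and CD300A. At CD180, a Toll-like receptor homologue, H3K4me1 covered 72.3% of the gene. The share was 19.6% for GPR receptors (11 of 56), 12.7% for solute carriers (25 of 197), 10.7% for ZNF genes (11 of 103), 10.0% for LOC symbols (53 of 528) and 9.80% for cytochrome P450 genes (5 of 51). It was 4.05% for keratins (6 of 148), 2.05% for olfactory receptors (8 of 391) and 0 of 27 for taste receptors. The smaller families had 4 of 15 S100 genes, 2 of 17 protein tyrosine phosphatases, 2 of 45 defensins, 2 of 31 serpins, 2 of 28 histone genes and 1 of 17 type I interferons. All are read against 14.2%, and the families were not matched for distance to H3K4me3.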
